A study of Homo sapiens with 6 samples.

Results

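The tubulin genes of SK-N-BE cells, 10 in all, were followed through an RNA pull-down experiment. They were TUBA1A, TUBA1B, TUBA1C, TUBB, TUBB2A, TUBB2B, TUBB3, TUBB4B, TUBB6 and TUBG1, taken by symbol from a table of 60676 genes. Each symbol matched 1 entry. SK-N-BE is an established human neuroblastoma line, here cultured for 1.5 days in medium with 10 µM retinoic acid, which drives these cells towards a neuronal fate. All 3 groups came from these cells, so the results describe a single line at a single time. Input was RNA from the cell extract before capture. CyCoNP PD was the RNA recovered with biotinylated probes against the long non-coding RNA CyCoNP (LINC02381), and LacZ PD was the RNA recovered with probes against a bacterial gene that human cells lack. Each group had 2 libraries, numbered 1 and 2, sequenced as PCR-amplified cDNA on the Nanopore platform. The comparisons asked which RNAs were recovered with the CyCoNP probes over Input and over the control probes.

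Microtubules are built from dimers of one alpha-tubulin and one beta-tubulin, each encoded by several genes whose proteins are called isotypes. Developing neurons are known for high levels of the isotypes encoded by TUBA1A, TUBB2A, TUBB2B and TUBB3, while TUBA1B, TUBA1C, TUBB, TUBB4B and TUBB6 are used more widely across cell types. Gamma-tubulin, encoded by TUBG1, does not enter the microtubule wall but forms part of the ring complex from which new microtubules grow.

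The libraries differed strongly in depth. Input held 717905 and 791970 counts, CyCoNP PD 1512148 and 514882, and LacZ PD 18870 and 140115, so that 3 counts, the limit that a count of 0 allows, stood for 159 CPM (counts scaled to a common library total of 1000000) in LacZ PD 1 and 21.4 CPM in LacZ PD 2. The captured RNA, LINC02381, had 20 and 39 counts in Input, 11687 and 3507 in CyCoNP PD, while LacZ PD had 1 and 20. Of 9 markers of sympathoadrenal neuroblastoma, 8 or 9 were detected in each library, while of the Schwann cell markers SOX10 was at 0 in all 6 libraries and S100B had at most 3 counts. The study describes the pull-down libraries as biological duplicates, while the labels do not say what a library number marks. The p-values measure the spread between these libraries, which some fits pool over all genes.

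In Input, a single gene supplied most of the tubulin RNA. TUBA1A, the main alpha isotype of developing neurons (GRCh38 chr12:49184686-49189080, minus strand), had 18237 and 10264 counts in the Input libraries, or 25403 and 12960.1 CPM. That was 92.6% (95% Wilson interval 92.2 to 92.9) and 87.9% (87.3 to 88.5) of the counts of the 10 tubulin genes. These intervals, like all those on shares of counts here, cover counting error only, since amplified reads are not independent molecules. Per kilobase of transcript, the mean level in Input was 11472 CPM for TUBA1A and 593 CPM for TUBA1B, the alpha isotype found in most cell types (chr12:49127782-49131397, minus strand). Both values stood clear of the next gene in both Input libraries.

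The beta isotypes were far less abundant in Input and could not be ranked with confidence. On the same scale of CPM per kilobase, the means were 126 for TUBB, the common beta isotype (chr6:30717435-30725538, plus strand), and 125 for TUBB3, the class III beta isotype used as a neuronal marker (chr16:89921392-89938761, plus strand). They were followed by 80.2 for TUBB2B (chr6:3223324-3231730, minus strand), 66.2 for TUBB4B (chr9:137241287-137243707, plus strand) and 45.7 for TUBB2A (chr6:3153497-3157544, minus strand). Each of these 5 genes overlapped its neighbour in the order between the Input libraries, and so did TUBB2A and TUBG1 (chr17:42609641-42615238, plus strand) at 25.7. The lowest were TUBA1C (chr12:49188736-49274600, plus strand) at 10.7 and TUBB6 (chr18:12307669-12344320, plus strand) at 7.51, which also overlapped each other. The canonical transcripts of the alpha and beta genes have 4 exons each, and that of TUBG1 has 11.

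**Figure D1:**
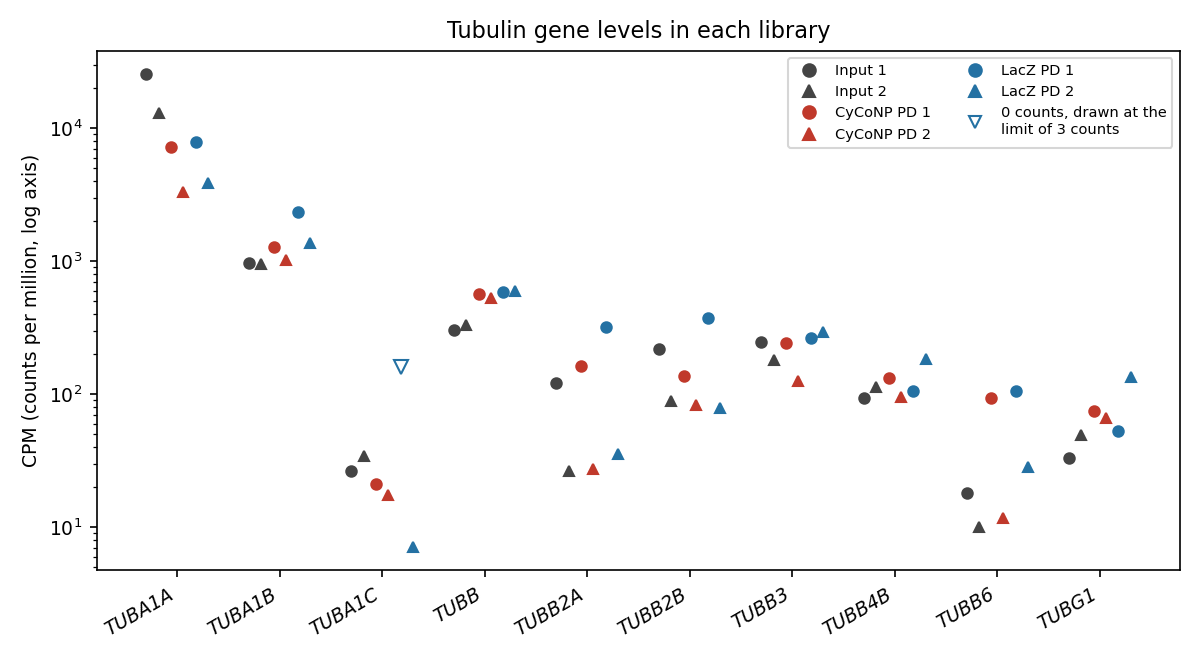
CPM of each tubulin gene in the 6 libraries on a log axis, with circles for library 1 and triangles for library 2 of Input, CyCoNP PD and LacZ PD. TUBA1A is the highest gene in every library, at 25403 and 12960.1 CPM in Input and between 3335 and 7896 CPM in the pull-downs; the open triangle marks TUBA1C at 0 counts in LacZ PD 1, drawn at the limit of 159 CPM.

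Counts of such close relatives depend on how reads are told apart, so the closest pairs were compared by sequence. The coding sequences of TUBA1A and TUBA1B are both 1356 bases long and differ at 38 of them (97.2% identity), and the longest stretch without a difference is 221 bases. TUBB2A and TUBB2B are closer still, with 25 differences over 1338 coding bases (98.1% identity) and a stretch of 725 bases without any. Their most different 30 bases (coding bases 134 to 163, GENCODE 44 canonical transcripts on GRCh38) are printed 5′ to 3′ on the coding strand to show how little separates the pair, with the 5 differing bases in capitals.
TUBB2A, chr6:3156047-3156076 (minus strand): agagaatcaaCgtGtactacaatgaGgcTG
TUBB2B, chr6:3226564-3226593 (minus strand): agagaatcaaTgtTtactacaatgaAgcCA
By coding sequence alone, the division of reads within these pairs is therefore uncertain. The untranslated ends of the transcripts, which reads may also cover, were not compared. TUBA1A and TUBA1C lie on opposite strands and overlap in the annotation, and how reads were divided between them was not tested. TUBA1C had at most 32 counts in any library, against 149 to 18237 for TUBA1A.

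TUBA1A stood well below Input in both pull-downs. Its 10831 and 1717 counts in CyCoNP PD gave 7163 and 3335 CPM, and its 149 and 539 counts in LacZ PD gave 7896 and 3847 CPM. All 4 pull-down libraries lay below both Input libraries, and the CyCoNP PD and LacZ PD libraries overlapped. In CPM of libraries with the same number, the ratio of CyCoNP PD to Input was 0.282 and 0.257, that of LacZ PD to Input 0.311 and 0.297, and that of CyCoNP PD to LacZ PD 0.907 and 0.867. After TMM, edgeR's scaling for library composition, these ratios were 0.323 and 0.246, 0.176 and 0.247, and 1.84 and 0.993. The scaling thus decided which pull-down was higher in library 1, while in library 2 CyCoNP PD was the lower on both scales. Within a group, the CPM of TUBA1A was higher in library 1 than in library 2, by 1.96 times in Input, 2.15 times in CyCoNP PD and 2.05 times in LacZ PD (1.72, 2.27 and 1.22 times after TMM). Per the study's methods, Input cDNA was amplified in fewer pooled PCR reactions than pull-down cDNA, so capture and amplification cannot be told apart in any comparison with Input.

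Whether this difference from Input passed the threshold depended on the model. In edgeR's quasi-likelihood test with TMM normalization over 12565 genes, the TUBA1A estimate for CyCoNP PD against Input was a log2 fold change of -1.76 (SE 0.79, 95% interval -3.45 to -0.07, unadjusted p = 0.0419, adjusted p = 0.891). In LacZ PD against Input it was -2.31 (SE 0.81, interval -4.04 to -0.58, unadjusted p = 0.0123, adjusted p = 0.607). With the library number as a block, edgeR gave -1.81 and -2.241, with adjusted p-values of 0.273 and 0.169. DESeq2 without the block gave adjusted p-values of 0.0715 for CyCoNP PD and 0.0125 for LacZ PD, and DESeq2 with the block gave 0.000215 and 1.58e-05, which passed in both pull-downs. The direct contrast of CyCoNP PD with LacZ PD gave 0.55 (interval -1.10 to 2.20, adjusted p = 0.884) after TMM and -0.16 with library size alone, so its sign depended on the scaling.

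TUBA1B lay above Input in CPM in both pull-downs. It had 698 and 757 counts in Input, 1945 and 530 in CyCoNP PD, while LacZ PD had 44 and 193. Its CPM was 972 and 956 in Input, 1286 and 1029 in CyCoNP PD, against 2332 and 1377 in LacZ PD, so the 3 groups did not overlap on that scale. After TMM it was 1027 and 1149 in Input, 1558 and 1181 in CyCoNP PD, against 1390 and 1379 for LacZ PD, where both pull-downs still lay above Input but overlapped each other. The log2 fold changes of 0.33 in CyCoNP PD (interval -0.98 to 1.64) and 0.35 in LacZ PD (interval -0.98 to 1.67) did not pass the test. TUBA1C had 19 and 27 counts in Input, 32 and 9 in CyCoNP PD, while LacZ PD had 0 and 1. Its single count among 158985 in LacZ PD, against 46 among 1509875 in Input, gave a ratio of 0.206 with an exact counting interval of 0.00512 to 1.21, which holds equality.

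The make-up of the alpha-tubulin RNA differed accordingly. TUBA1A took 96.2% (95% Wilson interval 95.9 to 96.5) and 92.9% (92.4 to 93.4) of the counts of the 3 alpha genes in Input. The share was 84.6% (83.9 to 85.2) and 76.1% (74.3 to 77.8) in CyCoNP PD, with 77.2% (70.8 to 82.6) and 73.5% (70.2 to 76.6) in LacZ PD. The means were 94.6% ± 2.34 in Input, 80.3% ± 5.98 in CyCoNP PD and 75.4% ± 2.59 in LacZ PD (SD, n = 2). Both pull-downs lay below Input without overlap, and the exact two-sided permutation test gave 0.333 for each, the smallest p that 2 against 2 libraries allow. The pull-downs overlapped each other. The sum of the 3 alpha genes, which does not depend on how reads were divided among them, was 2.02% ± 0.88 of all counts in Input, 0.643% ± 0.289 in CyCoNP PD and 0.773% ± 0.353 in LacZ PD (SD, n = 2), again with both pull-downs below Input.

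**Figure D2:**
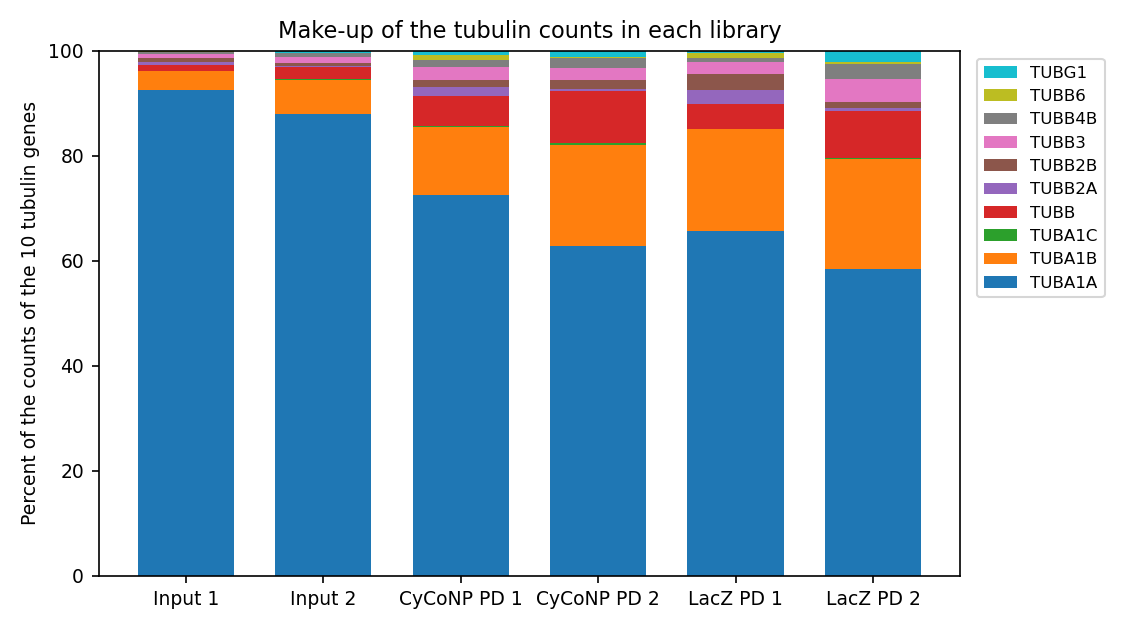
Stacked bars of the percent of the counts of the 10 tubulin genes that each gene took in each library. TUBA1A takes 92.6% and 87.9% in Input and between 58.5% and 72.5% in the 4 pull-down libraries, where TUBA1B and TUBB fill most of the remainder.

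Together the 10 genes held 2.74% and 1.47% of all counts in Input, 0.988% and 0.532% in CyCoNP PD, against 1.20% and 0.658% in LacZ PD. Without TUBA1A, the remaining 9 genes held 0.204% and 0.179% in Input, 0.272% and 0.198% in CyCoNP PD, with 0.413% and 0.273% in LacZ PD. The lower total in both pull-downs was thus carried by TUBA1A, while the other 9 together were no lower than in Input 2 in any pull-down library.

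The neuronal isotypes were fewer in sum relative to the general isotypes in both pull-downs, and TUBA1A accounted for most of this. The summed counts of TUBA1A, TUBB2A, TUBB2B and TUBB3 were 18.4 and 9.18 times those of TUBA1B, TUBA1C, TUBB, TUBB4B and TUBB6 in Input. The same ratio was 3.67 and 2.13 in CyCoNP PD, against 2.83 and 1.94 in LacZ PD. The mean log2 ratio was 3.70 ± 0.71 in Input, 1.48 ± 0.56 in CyCoNP PD and 1.23 ± 0.38 in LacZ PD (SD, n = 2), a difference from Input of -2.22 and -2.47. Among beta isotypes alone, where TUBA1A does not enter, the ratio was 1.41 and 0.652 in Input, 0.683 and 0.374 in CyCoNP PD, with 1.20 and 0.504 in LacZ PD, and all groups overlapped. Between libraries of the same number it was lower than in Input each time, with log2 differences of -1.04 and -0.80 for CyCoNP PD, and -0.23 and -0.37 for LacZ PD (means -0.92 and -0.30).

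The neuronal beta isotypes gave no call against Input. TUBB3 had 176 and 143 counts in Input, 365 and 65 in CyCoNP PD, while LacZ PD had 5 and 41, or 245 and 181, 241 and 126, and 265 and 293 CPM. Its log2 fold change was -0.12 in CyCoNP PD (SE 0.62, interval -1.45 to 1.22) and -0.01 in LacZ PD (SE 0.66, interval -1.42 to 1.39), the latter turning to 0.41 when scaled by library size alone. The CyCoNP PD libraries overlapped Input, and both LacZ PD libraries lay above it in CPM, while after TMM LacZ PD (158 and 293) overlapped Input (259 and 217). TUBB2B, which like TUBB2A encodes a class II beta-tubulin, had 158 and 70 counts in Input, 206 and 43 in CyCoNP PD, while LacZ PD had 7 and 11, and its log2 fold changes were -0.37 and -0.34. For TUBB2A the counts were 87 and 21, 248 and 14, and 6 and 5, with log2 fold changes of 0.55 and 0.18. The groups of both class II genes overlapped, and their intervals reached from -1.81 to 1.08 for TUBB2B and from -1.37 to 2.46 for TUBB2A in CyCoNP PD.

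Of the general beta isotypes, TUBB lay above Input in CPM in all 4 pull-down libraries, but after TMM only in CyCoNP PD. It had 219 and 261 counts in Input, 856 and 271 in CyCoNP PD, while LacZ PD had 11 and 83. That gave 305 and 329.6 CPM in Input, 566 and 526 in CyCoNP PD, with 583 and 592 in LacZ PD. The CPM ratio of CyCoNP PD to Input was 1.86 and 1.60 in libraries 1 and 2, and that of LacZ PD to Input 1.91 and 1.80. After TMM the level was 322 and 396 in Input, 686 and 604 in CyCoNP PD, against 348 and 593 for LacZ PD, so LacZ PD 1 fell among the Input libraries. The log2 fold changes of 0.84 (SE 0.60, interval -0.45 to 2.13) and 0.42 (SE 0.62, interval -0.90 to 1.74) did not pass.

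For TUBB4B and TUBB6 the libraries of CyCoNP PD overlapped those of Input. TUBB4B, a widely used isotype, had 67 and 90 counts in Input, 201 and 49 in CyCoNP PD, while LacZ PD had 2 and 26, with log2 fold changes of 0.21 and 0.23. TUBB6, the class V beta isotype, had 13 and 8 counts in Input, 142 and 6 in CyCoNP PD, while LacZ PD had 2 and 4. Its log2 fold change of 2.05 in CyCoNP PD (SE 0.87, interval 0.19 to 3.91, unadjusted p = 0.0331, adjusted p = 0.829) rested on library 1. There it stood at 93.9 CPM, against 11.7 CPM in library 2 and 18.1 and 10.1 CPM in Input. Leaving out CyCoNP PD 1 turned the value to -0.20. In LacZ PD its log2 fold change was 1.29 (interval -1.09 to 3.67).

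TUBG1, the gamma-tubulin of the nucleating ring complex, had 24 and 39 counts in Input, 113 and 34 in CyCoNP PD, while LacZ PD had 1 and 19. Its CPM was 33.4 and 49.2 in Input, 74.7 and 66.0 in CyCoNP PD, with 53.0 and 136 in LacZ PD, so both pull-downs lay above Input in CPM. After TMM, LacZ PD 1 was at 31.6, below both Input libraries (35.3 and 59.2), and CyCoNP PD stayed above them at 90.5 and 75.8. The log2 fold changes were 0.82 (SE 0.67, interval -0.61 to 2.243) and 1.05 (SE 0.73, interval -0.52 to 2.62), and neither passed. The value of 53.0 CPM is that of 1 count.

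**Figure D3:**
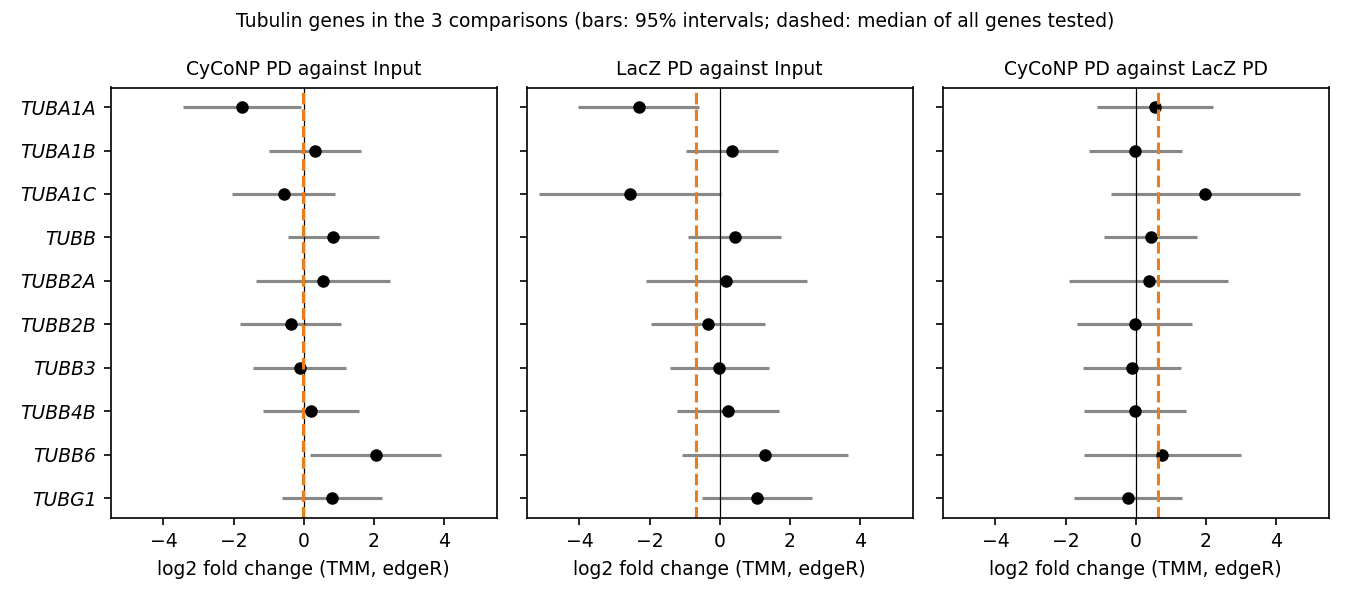
Log2 fold change (edgeR, TMM) of each tubulin gene in the 3 comparisons, with 95% intervals as bars and the median of the 12565 genes tested as a dashed line. TUBA1A against Input lies at -1.76 in CyCoNP PD and -2.31 in LacZ PD with intervals below 0, TUBB6 lies at 2.05 in CyCoNP PD, and the intervals of the other genes against Input include 0.

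All 10 genes passed the filter on low counts and were tested, and 0 of 10 were called by edgeR at an adjusted p under 0.05 and a log2 fold change beyond 1 in any of the 3 comparisons. In CyCoNP PD against Input the calls over all genes were 0.119% higher and 0.00796% lower. Without adjustment of the p-values, TUBB6 passed 0.05 upwards and TUBA1A downwards, as did 3.08% and 2.32% of all genes. DESeq2 called 0 of 10 there without the block, where it called 0.462% of all genes higher and 0.111% lower. With the block it called 1 of 10, TUBA1A, where 0.692% of all genes were called higher and 0.279% lower. All DESeq2 shares here are of the 12565 genes. Those include genes that its own filter left without an adjusted p, which could not be called.

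In LacZ PD against Input, edgeR called 0% of all genes in either direction. Without adjustment, TUBA1A passed 0.05 downwards, as did 6.28% of all genes, and 0 of the 10 passed upwards, where 0.740% of all genes did. DESeq2 called TUBA1A lower, where 0.0557% of all genes were called higher and 0.374% lower, and again with the block, where the shares were 0.0875% and 0.589%. In CyCoNP PD against LacZ PD, edgeR called 0% of all genes, and 0 of the 10 passed 0.05 without adjustment, where 4.74% of all genes did upwards and 0.462% downwards. The captured RNA, LINC02381, was itself not called by edgeR there (log2 fold change 6.39, adjusted p = 0.0785). An absent edgeR call in this contrast therefore carries little weight. LINC02381 was called there by edgeR with the block (adjusted p = 1.65e-09) and by DESeq2 without it (adjusted p = 5.49e-15). DESeq2 called 0 of the 10 in this contrast, both without the block (0.287% of all genes higher, 0.0159% lower) and with it (0.398% higher, 0.0239% lower).

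On the CPM scale, 3 of 10 genes (TUBA1B, TUBB and TUBG1) exceeded both Input libraries in CyCoNP PD 1 and CyCoNP PD 2, as did 15.9% of all genes tested. The 2 genes that were lower without overlap were TUBA1A and TUBA1C, where 20.3% of all genes were. In LacZ PD, 5 of 10 (TUBA1B, TUBB, TUBB3, TUBB6 and TUBG1) were higher without overlap, against 10.6% of all genes, and TUBA1A and TUBA1C were lower, against 33.7%. In CyCoNP PD against LacZ PD, TUBA1C was higher, against 29.3% of all genes. TUBA1B, TUBB and TUBB3 were lower, against 9.57%. The TUBA1C value of LacZ PD 1 is a count of 0, and the LacZ PD libraries listed 5065 and 9340 genes above 0, against 16114 and 15780 in Input and 17833 and 13538 in CyCoNP PD.

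These counts depended on the scaling where LacZ PD entered. With TMM-normalized CPM, a comparison added after the values were seen, the same 3 genes were higher in CyCoNP PD than in Input (17.2% of all genes) and the same 2 lower (18.6%). In LacZ PD against Input, 2 of 10 in place of 5 were higher, TUBA1B and TUBB6 (5.75% of all genes), and TUBA1A and TUBA1C were again lower (39.9%). In CyCoNP PD against LacZ PD, TUBA1C and TUBB were higher (35.9%) and 0 of 10 were lower (4.25%), so TUBB turned direction.

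The median log2 fold change of the 10 genes was 0.27 in CyCoNP PD, with 6 above and 4 below 0, against -0.01 over all genes. Leaving out CyCoNP PD 1 turned it to -0.45, with 3 above and 7 below, against -0.20, and leaving out Input 2 gave 0.14, with 5 and 5. In LacZ PD it was 0.21, again 6 and 4, against -0.68. It was 0.69, with 8 and 2, against -0.34 when scaled by library size alone, 0.015 without Input 2, and -0.55, with 4 and 6, against -4.52 without LacZ PD 2. Relative to the medians of all genes in the main fit, TUBA1A stood at -1.75 and -1.63. The median of all genes in LacZ PD depended on the count filter, so the second value does too. It was -0.36 with edgeR's own expression filter and -1.17 without a count filter. In CyCoNP PD against LacZ PD the median of the 10 genes was 0.17, with 5 above and 5 below 0, against 0.64, and its sign depended on the setting. Library size alone gave -0.42, with 2 and 8, and leaving out CyCoNP PD 1 or CyCoNP PD 2 gave -0.24, with 3 and 7, or 0.41, with 9 and 1. The 2 comparisons with Input share the Input libraries and are not independent of each other.

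The probes held no long match to the tubulin transcripts. Of the 22 CyCoNP probes of 20 bases, the longest exact complement in any annotated transcript of a tubulin gene was 9 to 12 bases, against all 20 in LINC02381. For TUBB and TUBG1 a probe with a 12-base complement is shown with those bases in capitals, printed 5′ to 3′, since no complement was longer. Further probes with a complement of the same length in a gene were not listed.
CyCoNP probe 7, complementary to the 3′ UTR of TUBB: taaTCAGGGGTGTTCtgctc
CyCoNP probe 13, complementary to TUBG1: agGCATGGGGAAGGattagg
For TUBA1A the longest complement was 10 bases, in probe 2.
CyCoNP probe 2, complementary to TUBA1A: gggaactGGAGGGAGAGgtc
For the LacZ probes the longest complement in any tubulin transcript was 8 to 10 bases. How often such short matches occur in other transcripts was not counted.

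TUBB2A differed between the libraries numbered 1 and 2 whatever the group. It was higher in library 1 in all 3 groups, at 121 against 26.5 CPM in Input, 164 against 27.2 CPM in CyCoNP PD and 318 against 35.7 CPM in LacZ PD, or by 4.57, 6.03 and 8.91 times (4.02, 6.37 and 5.31 times after TMM). In edgeR's fit with the library number as a term, a test added after the values were seen, the log2 difference was 2.34 (SE 0.50, interval 1.36 to 3.31, adjusted p = 0.000147). That interval has the width of a normal one. The spread in this fit was thus pooled over genes, and the gene's own spread hardly entered. TUBB2A was the one tubulin gene called between the numbers, where 4.46% of all genes were called higher in library 1 and 0.812% lower. Without the CyCoNP PD libraries the adjusted p for TUBB2A was 0.0896, without Input 0.0402 and without LacZ PD 0.000348.

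TUBB6 was higher in library 1 by 1.79, 8.06 and 3.71 times in Input, CyCoNP PD and LacZ PD (log2 difference 1.82, SE 0.62, adjusted p = 0.0612), and passed only without the LacZ PD libraries (adjusted p = 0.0303). TUBB2B was higher by 2.49, 1.63 and 4.73 times (log2 difference 1.07, SE 0.46, adjusted p = 0.195). For TUBB the library 1 to library 2 ratios were 0.926, 1.08 and 0.984 in CPM, and 0.813, 1.14 and 0.586 after TMM. SVBP, which encodes a partner of the tubulin-detyrosinating vasohibins, followed the direction of TUBB2A, with 116 against 22.7 CPM in Input, 185 against 27.2 in CyCoNP PD and 265 against 28.5 in LacZ PD (log2 difference 2.49, SE 0.51, adjusted p = 6.19e-05).

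Of 6 markers of mesenchymal cells, the 3 collagens differed between the library numbers as well, while the estimates of the other 3 had the opposite sign. Of the 6, 6 and 5 were detected in Input, 6 and 6 in CyCoNP PD, against 3 and 3 in LacZ PD. Their summed level was 520 and 48.0 CPM in Input, 332 and 79.6 in CyCoNP PD, with 477 and 28.5 in LacZ PD. COL1A1, a fibrillar collagen, had 192 and 10 counts in Input, 186 and 3 in CyCoNP PD, while LacZ PD had 4 and 1 (log2 difference between the numbers 4.26, SE 0.59, adjusted p = 1.55e-10 in edgeR with the number as a term). COL1A2, its partner chain, had 131 and 2, 165 and 1, and 1 and 0 counts (5.86, SE 0.76, adjusted p = 4.90e-12), and COL3A1, another fibrillar collagen, 30 and 0, 130 and 3, and 4 and 0 (4.91, SE 0.78, adjusted p = 4.40e-08). These 3 carried the sum, and their p-values rest on a spread pooled over genes. LUM, which encodes a small matrix proteoglycan, was lower in library 1 in every group, with 11.1 against 18.9 CPM in Input, 5.29 against 38.8 in CyCoNP PD and 0 against 14.3 in LacZ PD, although it did not pass the test (-1.92, SE 0.71, adjusted p = 0.0994). PDGFRB, a growth factor receptor, had 11.1 against 10.1 CPM in Input, 4.63 against 17.5 in CyCoNP PD and 0 against 7.14 in LacZ PD (-0.96, SE 0.87, adjusted p = 0.704). DCN had 4 and 3 counts in Input, 6 and 5 in CyCoNP PD, and 0 in both LacZ PD libraries (-0.49, SE 1.16, adjusted p = 0.914). The summed neuroblastoma markers were at 3147 and 3222 CPM in Input, 2299 and 2814 in CyCoNP PD, with 2862 and 2048 in LacZ PD. The part of these markers in the levels of TUBB2A, TUBB6 and TUBB2B was not tested.

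**Figure D4:**
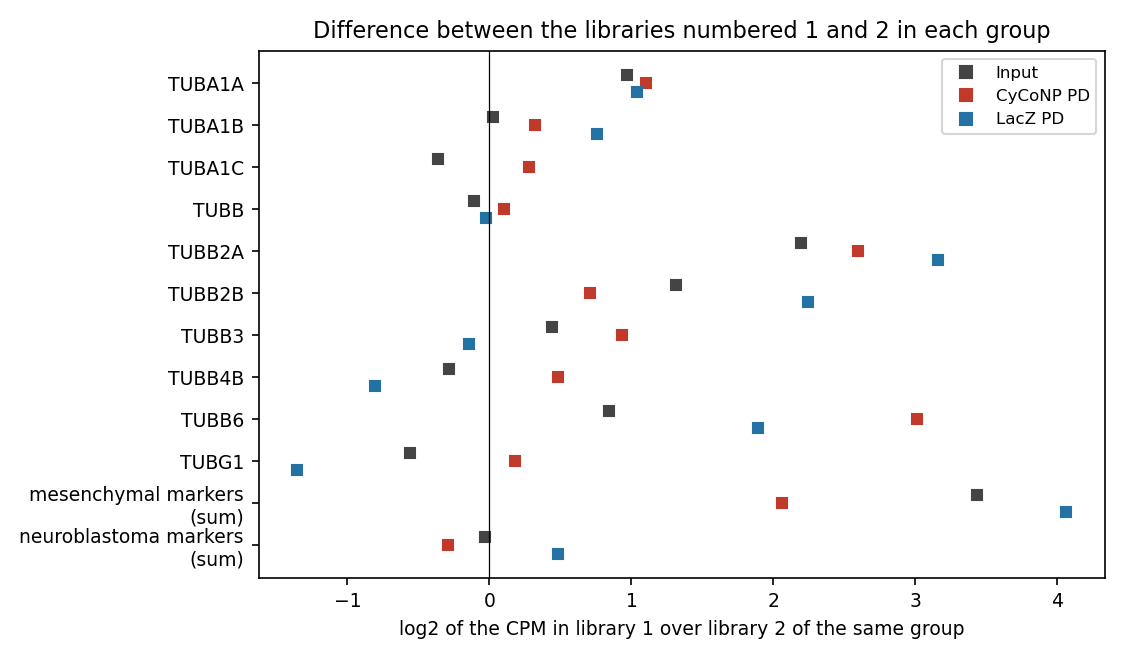
Log2 ratio of the CPM in library 1 to that in library 2, for each tubulin gene and for the summed mesenchymal and neuroblastoma markers, with one square per group. TUBB2A lies between 2.19 and 3.16 and TUBA1A between 0.97 and 1.103 in all groups, TUBB lies near 0, and the sum of the mesenchymal markers, carried by 3 collagens, lies between 2.06 and 4.06; TUBA1C has no square for LacZ PD because library 1 has 0 counts.

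Of the 13 remaining tubulin family genes in the table, 7 had 0 counts in all libraries and 5 were tested. With or without the block, edgeR called 0 of them in any comparison, where it called at most 1.53% of all genes in one direction. TUBB4A, a beta isotype of the brain that was chosen after its values were seen, as the one gene of these with an unadjusted p under 0.05, had 4 and 4 counts in Input, 37 and 14 in CyCoNP PD, while LacZ PD had 1 and 0 (log2 fold change in CyCoNP PD 2.30, SE 0.92, unadjusted p = 0.0257, adjusted p = 0.811 in edgeR). The highest in Input were TUBA4A (13 and 5 counts), TUBD1, the delta-tubulin (13 and 15 counts), and TUBE1, the epsilon-tubulin (9 and 8 counts). DESeq2 gave TUBA4A, TUBB4A, TUBD1 and TUBE1 no adjusted p in any comparison, so it could not call them. Of 51 annotated tubulin pseudogenes, 39 had 0 counts in all libraries and 3 were tested. Of these, 0 were called by edgeR, and DESeq2 gave them no adjusted p, so it could not call them. TUBBP1, a beta-tubulin pseudogene, had 62 and 11 counts in Input, 20 and 4 in CyCoNP PD, while LacZ PD had 0 and 0, TUBAP2 had 27 and 5, 23 and 1, and 0 and 0, and TUBA5P had 5 and 3, 13 and 4, and 0 and 2. Reads of such copies may belong to their parent genes.

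Newly made tubulin is folded by the cofactors TBCA to TBCE with the small GTPase ARL2. A list of 8 genes held these with TBCEL and TTC5. All 8 were tested, and 0 were called by edgeR or DESeq2 in any comparison. DESeq2 cannot call a gene that its own filter leaves without an adjusted p. TBCA, which holds folded beta-tubulin, had 374 and 385 counts in Input, 599 and 229 in CyCoNP PD, while LacZ PD had 3 and 88. Its CPM overlapped between Input and LacZ PD, where library 1 rested on 3 counts, and was 521 and 486 in Input against 396 and 445 in CyCoNP PD. TBCB, which binds alpha-tubulin, had 48 and 40 counts in Input, 102 and 45 in CyCoNP PD, while LacZ PD had 2 and 13, and ARL2 had 48 and 95, 186 and 41, and 1 and 25. The median log2 fold change of the list was 0.28 in CyCoNP PD and -0.86 in LacZ PD, beside -0.01 and -0.68 over all genes, and over the alternatives it ranged from -0.06 (without CyCoNP PD 1) to 0.42 and from -5.29 (without LacZ PD 2) to -0.16.

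Among the enzymes that modify tubulin, TTL stood above Input in CyCoNP PD and AGTPBP1 below it. Of 15 such genes 14 were tested, and without the library number as a block edgeR called 0 of them. DESeq2 without the block called TTL and AGTPBP1 in CyCoNP PD against Input, where it called 0.462% of all genes higher and 0.111% lower. It also called TTL in CyCoNP PD against LacZ PD, where 0.287% of all genes were called higher and 0.0159% lower. With the block, edgeR also called TTL and AGTPBP1 in CyCoNP PD against Input, where 1.53% of all genes were called higher and 0.732% lower. The blocked edgeR fit pooled the spread over genes, so its calls hardly reflect each gene's own spread. TTL, the ligase that restores the terminal tyrosine of alpha-tubulin, had 104 and 100 counts in Input, 729 and 262 in CyCoNP PD, while LacZ PD had 3 and 19. That was 145 and 126 CPM in Input, 482 and 509 in CyCoNP PD, with 159 and 136 in LacZ PD, so CyCoNP PD lay above both other groups without overlap, although 159 CPM is that of 3 counts. Of all genes, 15.9% lay above Input in CyCoNP PD without overlap, and 29.3% lay above LacZ PD. Its log2 fold change in CyCoNP PD against Input was 1.94 (SE 0.60, adjusted p = 0.447) without and 1.94 (SE 0.54, adjusted p = 0.0198) with the block in edgeR, and DESeq2 without the block gave an adjusted p of 0.0105. Against LacZ PD it was 2.28 (SE 0.66, adjusted p = 0.599) without and 2.26 (SE 0.64, adjusted p = 0.0558) with the block in edgeR, where the blocked fit called 0.724% of all genes higher and 0.0478% lower. DESeq2 gave an adjusted p of 0.0320 for that contrast without the block and 0.0147 with it, where it called 0.287% and 0.398% of all genes higher. For TTL the contrast of LacZ PD with Input gave -0.34 (SE 0.64, adjusted p = 0.875).

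AGTPBP1, a carboxypeptidase that trims glutamates from tubulin tails, had fewer counts in both pull-downs than in Input, and whether this passed the test depended on the model. It had 95 and 96 counts in Input, 25 and 12 in CyCoNP PD, while LacZ PD had 0 and 2. In CyCoNP PD its log2 fold change was -2.62 (SE 0.67, adjusted p = 0.225) without and -2.63 (SE 0.56, adjusted p = 0.000394) with the block in edgeR. In LacZ PD, 2 counts among 158985 against 191 among 1509875 gave a ratio of 0.0994 with an exact counting interval of 0.0120 to 0.364, and edgeR's adjusted p was 0.480 without and 0.0241 with the block, where 0.127% of all genes were called higher and 0.796% lower. DESeq2 without the block gave an adjusted p of 0.0313 for CyCoNP PD, where it called 0.111% of all genes lower. The contrast of CyCoNP PD with LacZ PD gave a log2 fold change of 1.04 for AGTPBP1 (SE 1.03, interval -1.15 to 3.24, adjusted p = 0.871). The median log2 fold change of the list was 0.23 in CyCoNP PD and -0.23 in LacZ PD, beside -0.01 and -0.68 over all genes. It ranged from -0.58 (without CyCoNP PD 1) to 0.37 and from -5.00 (without LacZ PD 2) to 0.13 (library size alone).

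Of 9 genes of the gamma-tubulin ring complex 8 were tested, and 0 were called by edgeR or DESeq2 in any comparison with or without the block. DESeq2 gave MZT1 no adjusted p in LacZ PD against Input, with or without the block, so it could not be called there. Genes of the list with fewer counts than MZT1 are at least as liable to this, so an absent DESeq2 call says little for them. The small subunits MZT2B (140 and 153 counts in Input, 250 and 102 for CyCoNP PD, 4 and 26 for LacZ PD), MZT2A (84 and 120, 148 and 55, 1 and 26) and MZT1 (21 and 40, 71 and 13, 3 and 11) were the highest in Input. In CPM, MZT2B was at 195 and 193 in Input, 165 and 198 in CyCoNP PD, with 212 and 186 in LacZ PD. The median log2 fold change of the list was -0.13 in both pull-downs against Input, beside -0.01 in CyCoNP PD and -0.68 in LacZ PD over all genes. It ranged from -0.42 to -0.08 in CyCoNP PD and from -1.77 (without LacZ PD 2) to 0.24 (library size alone) in LacZ PD.

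Among 4307 genes with at least 100 counts, those whose log2 TMM-normalized CPM followed the mean of the 10 tubulin genes most closely over the 6 libraries were ATP5F1CP1 (Pearson r 0.976), HMGN1P36 (0.973), RPL32P18 (0.971), FTLP3 (0.970) and CCDC34 (0.969). The first 4 are annotated as pseudogenes, and ATP5F1CP1 had 13 and 2 counts in Input, 141 and 0 in CyCoNP PD, while LacZ PD had 0 and 1. The 6 points share their libraries and the depth of those libraries, and such values describe no more than that.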

How the data were processed

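The 6 libraries (Input, CyCoNP PD and LacZ PD, 2 each) were grouped by their labels. Per the study's methods, the authors basecalled Nanopore PCR-cDNA reads with Guppy, removed short reads with Nanofilt, mapped them onto GRCh38 with minimap2 (2.24-r1122 in the submitters' processing notes) and counted them with Bambu over the genes of Ensembl 99, new isoforms excluded. The deposited counts are whole numbers per gene without normalization. The deposited CPM values are the same counts scaled to a total of 1000000 per library, to within 5.09e-11, and served only to check the count table. Each of the 60676 entries names a gene. Symbols, coordinates and transcript sequences were taken from GENCODE 44 on GRCh38, which gave symbols for 60357 entries. Whether counting used strand is not given in the sources used here. Probe sequences are those of the study.

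The 12565 genes whose counts summed to 10 or more over the libraries entered one edgeR 4.0.16 fit (R 4.3.3) of all 3 groups. Counts were scaled by TMM, tested by the quasi-likelihood F test and adjusted by Benjamini-Hochberg over those genes. TMM factors lay between 0.832 and 1.70, the highest being that of LacZ PD 1. A gene was called at an adjusted p under 0.05 with an absolute log2 fold change over 1. The fit was tested on simulated data. Standard errors were derived from the F statistic. DESeq2 1.42.0, other scalings and filters, a block for the library number, and the omission of single libraries were the alternatives. In edgeR's fits with the block, the 95% intervals had the width of normal ones. The p-values of those fits therefore rest on a spread pooled over genes, and a gene's own spread between libraries hardly entered. Deviations of same-numbered libraries from their group means correlated across genes. The values were 0.445 (Input and CyCoNP PD), 0.236 (Input and LacZ PD) and 0.236 (CyCoNP PD and LacZ PD). Ratios within a number and the fits with the block treated libraries of one number as pairs. The main fit and the permutation tests did not pair them. With 2 libraries per group only these 3 values are distinct, and the labels do not say what a number marks. Shares carry 95% Wilson intervals.

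The genes and lists were chosen with earlier results of these data known. All 10 tubulin genes are named, with LINC02381 as the check of the capture. Of each list of related genes (other tubulins, pseudogenes, cofactors, modifying enzymes, gamma-tubulin complex), the 3 highest in Input are named with those called in edgeR with or without the block, and the 5 genes most alike over the libraries are named. Markers were PHOX2A, HAND2, GATA3, ISL1, DBH, TH, MYCN, ELAVL4 and STMN2 (neuroblastoma), COL1A1, COL1A2, COL3A1, DCN, LUM and PDGFRB (mesenchymal), and SOX10 and S100B (Schwann cell); some other markers and sequences are not reported here.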

Additional observations from a re-analysis of the deposited data

How the results depend on the processing

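The number of tubulin genes called stayed at 0 in the 3 comparisons under every edgeR alternative and with each library left out. It was 1, TUBA1A, in LacZ PD against Input under DESeq2 (log2 fold change -2.26) and under DESeq2 with the replicate block (-2.17), and 1, again TUBA1A, in CyCoNP PD against Input under DESeq2 with the replicate block (-1.89). The replicate block in edgeR gave -1.81 and -2.241 for TUBA1A, and the block changed no other call of a tubulin gene. Over the alternatives, the adjusted p for TUBA1A ranged from 0.000215 to 1 in CyCoNP PD and from 1.58e-05 to 1 in LacZ PD. Leaving out single libraries moved its log2 fold change between -2.45 and -1.29 and between -2.81 and -1.87, and that in CyCoNP PD against LacZ PD between 0.01 and 1.02.

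With TUBB3 as the only neuronal isotype, the neuronal to general log2 ratio differed from Input by -0.66 in CyCoNP PD and -0.47 in LacZ PD, and with beta isotypes only by -0.92 and -0.30. Leaving out single libraries gave -2.72 to -1.72 and -2.97 to -1.97. The summed tubulin level (TMM-normalized CPM) was -1.37 in CyCoNP PD and -1.76 in LacZ PD on the log2 scale, with -1.18 in LacZ PD when scaled by library size alone. Leaving out single libraries gave -1.94 to -0.96 and -2.07 to -1.36. The number of tubulin genes called between libraries 1 and 2, 1 in all, was 0 without the CyCoNP PD libraries and 2 (TUBB2A and TUBB6) without the LacZ PD libraries.

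The median log2 fold change of the 10 tubulin genes in CyCoNP PD against LacZ PD turned to -0.069 under DESeq2, -0.42 with library size alone, and -0.021 and -0.16 with the replicate block in edgeR and DESeq2. Leaving out single libraries moved this median between -0.24 and 0.69, that of CyCoNP PD against Input between -0.45 and 0.49, and that of LacZ PD against Input between -0.55 and 0.31.

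Log2 fold changes of single genes turned sign as follows. Not all of them were near 0 in the main fit. In CyCoNP PD against LacZ PD they were 0.76 for TUBB6, 0.55 for TUBA1A, 0.42 for TUBB and 0.36 for TUBB2A. Against Input in LacZ PD, TUBB3 was 0.067 with DESeq2-style size factors, 0.41 with library size alone, 0.087 under DESeq2, 0.065 with edgeR's own expression filter, 0.10 with the replicate block in edgeR and 0.16 with it in DESeq2, TUBB2B was 0.24 with library size alone, and TUBB2A was -0.020 without a count filter. In CyCoNP PD against LacZ PD, library size alone gave TUBA1A -0.16, TUBB -0.11 and TUBB2A -0.37. No count filter gave TUBA1B 0.11, TUBB2B 0.10 and TUBB4B 0.066, and the replicate block gave TUBB2A -0.019 in edgeR and -0.18 in DESeq2 and TUBB6 -0.12 in DESeq2. The causes were not tested.

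Leaving out single libraries moved CyCoNP PD against Input between -1.33 and 1.87 for TUBB2A, -0.82 and 0.30 for TUBB2B, -0.70 and 0.30 for TUBB3, -0.086 and 0.46 for TUBB4B, and -0.20 and 2.84 for TUBB6. LacZ PD against Input moved between -0.29 and 0.71 for TUBB, -1.17 and 1.50 for TUBB2A, -1.12 and 0.33 for TUBB2B, -0.83 and 0.29 for TUBB3, -1.13 and 0.64 for TUBB4B, and -0.81 and 1.50 for TUBG1. CyCoNP PD against LacZ PD moved between -0.071 and 0.23 for TUBA1B, -1.34 and 1.72 for TUBB2A, -0.50 and 0.75 for TUBB2B, -0.57 and 0.72 for TUBB3, -0.44 and 1.35 for TUBB4B, -1.37 and 1.56 for TUBB6, and -0.69 and 1.65 for TUBG1. A lone library left in a group was assumed to vary like the others. LacZ PD 1, with 18870 counts, limits what any comparison with LacZ PD can show.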
